A study of Homo sapiens with 6 samples.

Results

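The neuronal intermediate filament genes *NEFL*, *NEFM*, *NEFH*, *INA*, *PRPH*, *VIM* and *NES* and the growth genes *STMN2*, *GAP43* and *DCX* were examined in SH-SY5Y cells. They are 10 of the 67060 genes counted, were listed by name (7 filament genes and 3 growth genes) and were found through their Ensembl identifiers in GENCODE release 44. All 10 passed the filter on low counts, which left 24500 genes to test. SH-SY5Y is a human neuroblastoma line of sympathetic origin, labelled here as a neuronal progenitor. The study asked how ERRγ (the orphan nuclear receptor encoded by *Esrrg*) changes gene expression. The control group (GFP libraries, replicates 1, 3 and 4) was infected with Ad CMV GFP, and the other group (ERRg libraries, replicates 2, 3 and 4) with Ad CMV 3xFlag-*Esrrg*, an adenovirus that carries the mouse coding sequence behind the CMV promoter. RNA was collected after 24 h, depleted of ribosomal RNA and sequenced. By the study's methods both groups received a virus, whereas the labels name the treatments GFP and Flag-ERRg transfection. No uninfected cells were analysed here. Nothing in the labels says that the libraries came from separate cultures, so the p-values measure the spread between these libraries, which may be technical.

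Reads counted on genes ran from 24969759 to 29700980 in the GFP libraries and from 26513620 to 40859666 in the ERRg libraries. *ESRRG* was 8.12-fold higher in the ERRg libraries, a count that mixes the human gene with those viral reads that aligned to it. ERRg replicate 2 stood apart from its group, with 46.6% of its reads assigned to no feature (the unassigned-read share) against 31.6% and 29.5% in replicates 3 and 4 and between 51.3% and 52.2% in the GFP libraries. Of 8 markers of adrenergic neuroblastoma cells, 7 had counts, and *TH*, the enzyme that makes dopa, was listed at 0 in all 6 libraries. No word of 31 bases of the *TH* transcript occurred in the 261 alternate contigs of the reference. Why *TH* had no counts was not tested. All 7 markers of mesenchymal cells had counts. The mesenchymal sum ran from 5780 to 5860 CPM (counts per 1000000, normalized by the TMM method of edgeR) in the GFP libraries and from 6320 to 6600 in the ERRg libraries. The adrenergic sum ran from 698 to 760 CPM and from 522 to 692 CPM. In the GFP libraries *COL3A1* (mean 2602 CPM) and *FN1* (mean 1956 CPM) made up most of the mesenchymal sum. The sums are not scaled for gene length, so these lists cannot be ranked by them. Markers of Schwann cells and glia summed to 8.05 CPM or less in every library. The part of these markers in the results below was not tested.

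Neurofilaments are the intermediate filaments of axons. NEFL forms their core, NEFM and NEFH carry long tails that reach out from the filament and set axon calibre, and INA (α-internexin) and PRPH (peripherin) can join them, the latter mainly in peripheral neurons. VIM (vimentin) and NES (nestin) are filament proteins of progenitors and mesenchymal cells. STMN2 (stathmin 2, also called SCG10) regulates microtubule dynamics at the growing axon tip, GAP43 is a membrane protein of the growth cone, and DCX (doublecortin) binds and stabilizes microtubules in migrating neurons.

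With *Esrrg* overexpression the neurofilament triplet *NEFL*, *NEFM* and *NEFH* rose together with *GAP43* and *DCX*, while *STMN2* and *PRPH* fell. Of these genes only *NEFL* and *NEFH* were called in all 19 alternative settings described below, and *STMN2* was called in 13. *GAP43* and *PRPH* lost their calls with the unassigned-read share as a covariate, and *PRPH* had 25 counts or fewer per library. In RNA from whole cultures, fewer cells that express a gene and less RNA per cell cannot be told apart. A gene was called when edgeR's quasi-likelihood test gave a p below 0.05 after Benjamini-Hochberg adjustment over all genes and its change was at least 1.5-fold. By this rule 5 of the 10 genes were called higher, where 17.3% of all tested genes and 25.9% of the protein-coding ones were. A further 2 were called lower, where 16.8% of all tested genes and 12.4% of the protein-coding ones were. Without the fold limit 9 of the 10 passed the adjusted p, against 47.8% of all tested genes. For 8 of the 10 the libraries of both groups were fully apart, against 58.1% of all tested genes. On the scale of log2 fold changes (log2FC, ERRg over GFP, with its standard error, SE), the 10 genes had a median of 0.57, beside -0.10 for all tested genes and 0.12 for protein-coding ones.

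**Figure D1:**
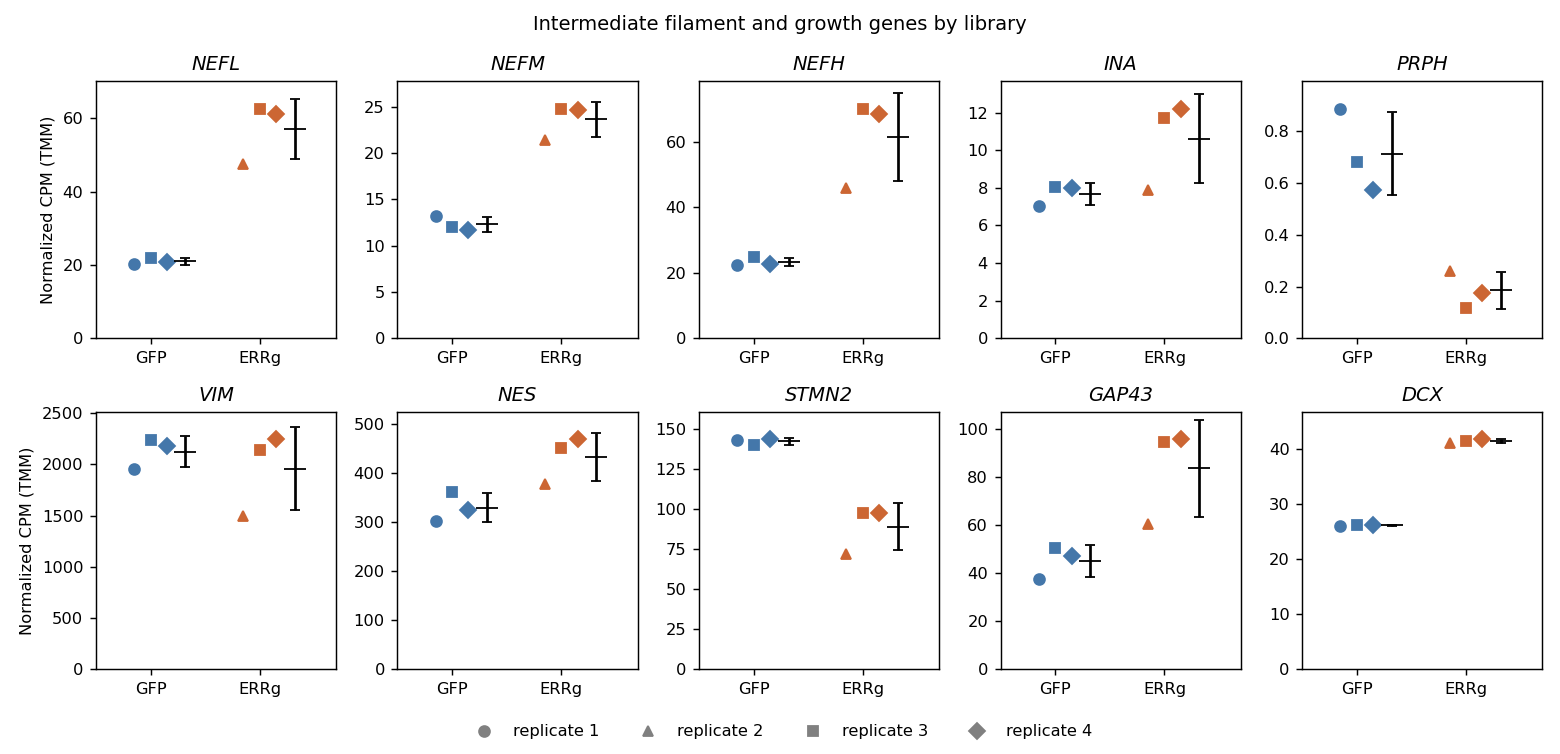
Normalized CPM (vertical axis, starting at 0) of each of the 10 genes in the 3 GFP and 3 ERRg libraries; symbols mark replicate numbers, and the black bar is the group mean with its SD. The triplet genes, *GAP43* and *DCX* sit higher in every ERRg library than in any GFP library, *STMN2* and *PRPH* sit lower, and ERRg replicate 2 is the lowest of its group for every gene except *PRPH*.

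*NEFL* (ENSG00000277586, chromosome 8 from 24950955 to 24956721 of GRCh38) had 20.22, 22.02 and 20.91 CPM in GFP replicates 1, 3 and 4 and 47.7, 62.7 and 61.1 CPM in ERRg replicates 2, 3 and 4. Every ERRg library was above every GFP library. The mean went from 21.05 ± 0.908 to 57.2 ± 8.24 CPM (SD, n = 3 each), a 2.72-fold rise (log2FC 1.44, SE 0.12, adjusted p = 1.9e-05 by edgeR's quasi-likelihood test). Antisense transcripts cover 19.8% of its exon bases and had 11 counts or fewer in every library. *NEFL* was called in all 19 alternatives, with log2FC values from 1.07 to 1.66.

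*NEFH* (ENSG00000100285, chromosome 22 from 29480218 to 29491390) had 22.3, 24.8 and 22.8 CPM in the GFP libraries and 45.8, 70.1 and 68.4 CPM in the ERRg libraries. It rose 2.64-fold, with ERRg replicate 2 at 0.661 times the mean of replicates 3 and 4. Its log2FC was 1.40 (SE 0.15, adjusted p = 8.3e-05, the same test), and it too was called in all 19 alternatives. The log2FC of *NEFH* was 1.00 with a per-library adjustment for GC content and length. It was 0.79 with the unassigned-read share as a covariate. *NEFM* (ENSG00000104722, chromosome 8 from 24913758 to 24919098) had 13.20, 11.96 and 11.72 CPM in the GFP libraries and 21.4, 24.8 and 24.6 CPM in the ERRg libraries. Its rise was 1.92-fold (log2FC 0.94, SE 0.11, adjusted p = 1.0e-04, the same test), smaller than those of the other triplet genes, although these differences were not tested. With the covariate *NEFM* had a log2FC of 0.75, close to that of *NEFH*. An unnamed antisense gene covers 26.4% of the exon bases of *NEFM* and had between 22 and 42 counts per library, where *NEFM* had 370 or more.

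*INA* (ENSG00000148798, chromosome 10 from 103277138 to 103290346) had 7.02, 8.02 and 7.98 CPM in the GFP libraries and 7.89, 11.7 and 12.2 CPM in the ERRg libraries. ERRg replicate 2 lay within the range of the GFP libraries, so the groups overlapped. *INA* passed the adjusted p but not the fold limit (log2FC 0.47, SE 0.17, adjusted p = 0.039, the same test). Leaving out ERRg replicate 2 gave *INA* a log2FC of 0.75 and a call. Exons of *NT5C2* on the opposite strand cover 13.9% of the exon bases of *INA*, and *NT5C2* was not called (log2FC -0.29).

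Levels of different genes were compared as CPM per kilobase of annotated exon (exons of all transcripts merged). The summed per-length level of *NEFL*, *NEFM*, *NEFH* and *INA*, which belong to class IV of the intermediate filaments, was 16.8, 17.9 and 17.0 in the GFP libraries. It was 32.5, 44.8 and 44.1 in the ERRg libraries, so that the groups were apart. Within this sum the share of *INA* went from 13.7% ± 0.798 to 8.02% ± 0.527 and that of *NEFM* from 19.66% ± 1.697 to 16.24% ± 1.653 (SD, n = 3 each). *NEFL* went from 31.01% ± 0.416 to 36.00% ± 1.098 of the sum. *NEFH* held the largest share in both groups by its mean, 35.6% ± 0.780 and 39.7% ± 2.27. These shares were not adjusted for GC content or for the unassigned-read share. The groups did not overlap for any of the 4 shares, and the exact two-sided permutation test gave p = 0.1 for each, the smallest p that 3 libraries against 3 allow.

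**Figure D2:**
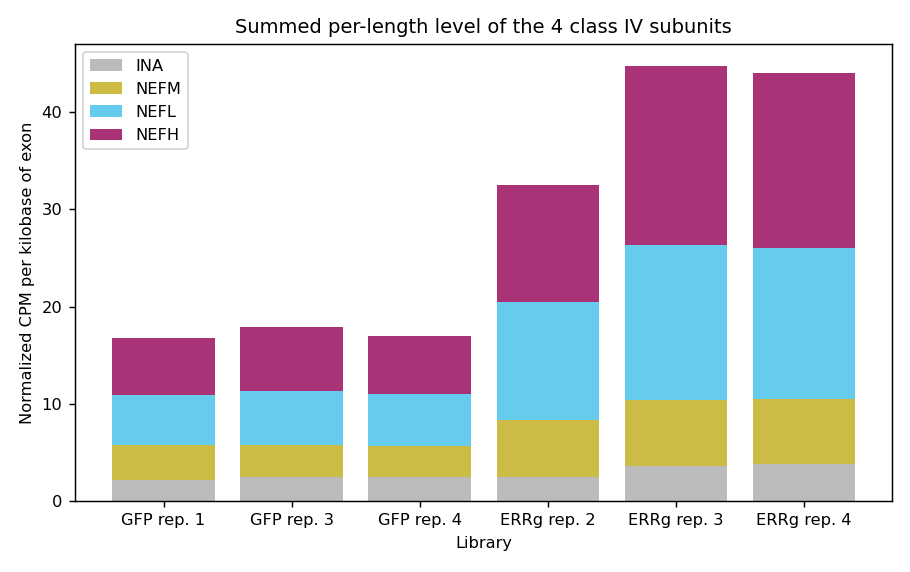
Normalized CPM per kilobase of exon (vertical axis, starting at 0) of *INA*, *NEFM*, *NEFL* and *NEFH*, stacked for each of the 6 libraries. The stack reaches 16.8 to 17.9 in the GFP libraries, 32.5 in ERRg replicate 2 and 44.1 to 44.8 in ERRg replicates 4 and 3, while the grey *INA* layer grows least.

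*PRPH* (ENSG00000135406, chromosome 12 from 49295147 to 49298686) was hardly detected, with 25, 21 and 19 counts in the GFP libraries and 7, 4 and 6 counts in the ERRg libraries. These counts correspond to 0.887, 0.679 and 0.574 CPM and to 0.262, 0.119 and 0.176 CPM. Every ERRg library was below every GFP library, a 3.85-fold lower level (log2FC -1.95, SE 0.39, adjusted p = 0.0022, edgeR's quasi-likelihood test). With the unassigned-read share as a covariate the log2FC was -1.17 (adjusted p = 0.31) and the call was lost. The antisense gene *TROAP-AS1* covers 71.5% of the exon bases of *PRPH* on the opposite strand. The strand setting of the counting is not given in the sources used here, so reads of this pair cannot be assigned with certainty. Reads left out of the counts as ambiguous between genes made up 4.55% to 4.87% of reads in the GFP libraries. In ERRg replicates 2, 3 and 4 they made up 5.69%, 9.84% and 9.79%. Their part in the change of *PRPH* was not tested. *TROAP-AS1* itself had 23, 32 and 17 counts in the GFP libraries and 7, 24 and 20 counts in the ERRg libraries. No word of 31 bases of the *PRPH* transcript occurred in the 261 alternate contigs of the reference.

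*VIM* (ENSG00000026025, chromosome 10 from 17228241 to 17237593) was the most abundant of the 10 genes, with 1955, 2236 and 2180 CPM in the GFP libraries and 1492, 2138 and 2243 CPM in the ERRg libraries. The groups overlapped, and only ERRg replicate 2 lay below the GFP range. The log2FC was -0.12 with a 95% interval from -0.44 to 0.20 (adjusted p = 0.57, edgeR's quasi-likelihood test). Its antisense gene *VIM-AS1*, which covers 12.7% of its exon bases, fell (log2FC -0.90, SE 0.21, adjusted p = 0.0045, the same test). Without ERRg replicate 2 the log2FC of *VIM* was 0.15 and was not called. With the unassigned-read share as a covariate it was -0.69 and was called lower.

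*NES* (ENSG00000132688, chromosome 1 from 156668763 to 156677407) had 302, 362 and 326 CPM in the GFP libraries and 378, 453 and 469 CPM in the ERRg libraries. The groups did not overlap, and the gene passed the adjusted p at 1.31-fold, below the fold limit (log2FC 0.39, SE 0.12, adjusted p = 0.020, the same test). A per-library adjustment for GC content and length left a log2FC of -0.010. *NES* has a GC content of 59.3% in its longest transcript. Beside *VIM* and *NES*, the summed level of the mesenchymal markers was higher in every ERRg library (6320 to 6600 CPM) than in any GFP library (5780 to 5860 CPM), although 2 of the 7 markers (*YAP1* and *COL1A2*) were called lower and the median log2FC of the 7 was -0.037. *FN1* (fibronectin) rose from a mean of 1956 CPM in the GFP to 2691 CPM in the ERRg libraries, below the fold limit (log2FC 0.46). This rise was larger than the difference between the group means of the sum. The other markers together therefore did not rise on average. In the sum of per-length levels over the 7 filament genes, *VIM* held 84.2% ± 0.456 in the GFP libraries and 75.96% ± 1.604 in the ERRg libraries (SD, n = 3 each). *NES* held 12.2% ± 0.415 and 15.9% ± 1.41 of that sum. Neither share overlapped between the groups (exact permutation test, two-sided, p = 0.1 for each, the smallest possible). With the longest transcript as the length, *VIM* held 91.1% and 85.8%.

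*STMN2* (ENSG00000104435, chromosome 8 from 79611117 to 79666158) had 143.1, 139.6 and 143.2 CPM in the GFP libraries and 71.9, 97.1 and 97.4 CPM in the ERRg libraries. The GFP libraries were close together, and all ERRg libraries lay below them. The fall was 1.598-fold (log2FC -0.68, SE 0.12, adjusted p = 0.0012, edgeR's quasi-likelihood test). The call rested on ERRg replicate 2, since without it the log2FC was -0.44 (adjusted p = 3.8e-06), below the fold limit. It was also -0.44 with the GC and length adjustment, and -1.11 with the unassigned-read share as a covariate. Beside *STMN2*, the adrenergic marker sum was lower in every ERRg library (522 to 692 CPM) than in any GFP library (698 to 760 CPM). Of 7 tested markers, *DBH* and *GATA2* were called lower and *PHOX2A* higher. The largest part of the fall lay in *HAND2*, with a mean of 367 CPM in the GFP and 264 CPM in the ERRg libraries. It was not called (log2FC -0.47).

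*GAP43* (ENSG00000172020, chromosome 3 from 115623510 to 115721490) had 37.7, 50.5 and 47.0 CPM in the GFP libraries and 60.5, 94.7 and 95.7 CPM in the ERRg libraries. It rose 1.86-fold without overlap between the groups (log2FC 0.89, SE 0.17, adjusted p = 0.0019, the same test). ERRg replicate 2 was nearer to the GFP libraries than to the other ERRg libraries. With the unassigned-read share as a covariate the log2FC was 0.21 (adjusted p = 0.26), and *GAP43* was not called.

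*DCX* (ENSG00000077279, chromosome X from 111293779 to 111412429) varied least of the 10 genes within the groups. It had 26.1, 26.2 and 26.3 CPM in the GFP libraries and 41.1, 41.5 and 41.8 CPM in the ERRg libraries. ERRg replicate 2 was at 0.987 times the mean of replicates 3 and 4. The rise was 1.58-fold (log2FC 0.66, SE 0.085, adjusted p = 1.9e-04, the same test). The log2FC was 0.64 with the covariate and 0.87 with the GC and length adjustment, and *DCX* was called in both. It was not called with protein-coding genes only (0.53), with library size as the only scaling (0.34), at 2-fold or by the test against a 1.5-fold threshold.

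**Figure D3:**
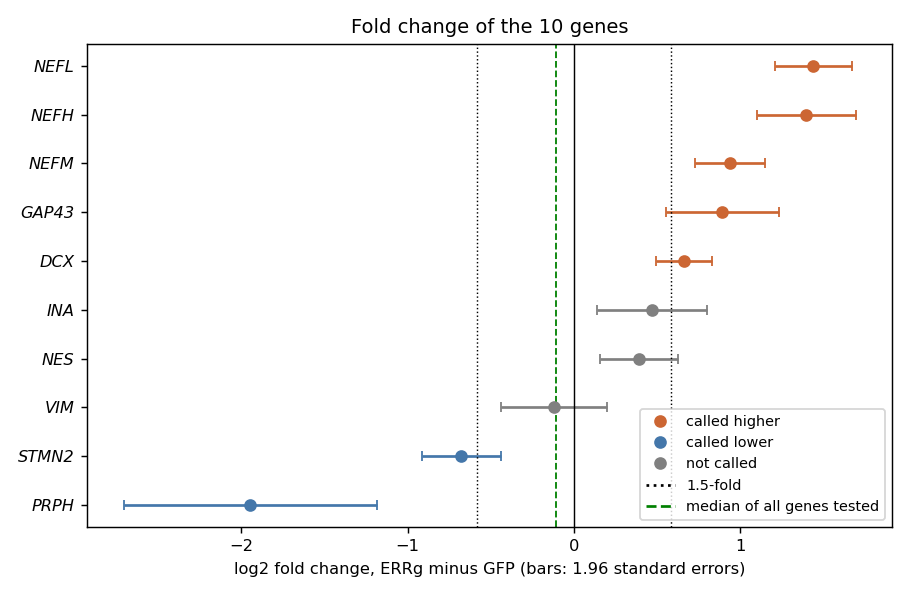
log2FC of each of the 10 genes, ERRg minus GFP (horizontal axis), with bars for the 95% interval; dotted lines mark 1.5-fold and the green dashed line the median of all tested genes at -0.10. *NEFL* at 1.44 and *NEFH* at 1.40 are highest, *PRPH* at -1.95 is lowest and has the widest bar, and the bar of *VIM* crosses 0.

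Per kilobase of exon, *VIM* was the highest of the 10 genes in both groups, at 410 ± 28.7 in the GFP and 378 ± 78.6 in the ERRg libraries (SD, n = 3 each, for these and the following levels). In the GFP libraries *STMN2* (69.5 ± 1.00), *NES* (59.3 ± 5.34) and *GAP43* (23.7 ± 3.48) followed, and none of these overlapped with its neighbour in the order. In the ERRg libraries *NES* (77.9 ± 8.70) came second, and *GAP43* (44.01 ± 10.56) and *STMN2* (43.5 ± 7.18) could not be put in order, since their ranges overlapped. *NEFH*, *NEFL* and *NEFM* came next in both groups, with 6.14 ± 0.338, 5.34 ± 0.230 and 3.38 ± 0.217 in the GFP libraries. *NEFH* and *NEFL* overlapped in the ERRg libraries (16.2 ± 3.57 and 14.5 ± 2.09). In the GFP libraries they were apart with merged exons but overlapped with the longest transcript as the length, so their order is not settled in either group. *DCX* (2.57 ± 0.00870) and *INA* (2.36 ± 0.173) were close to each other in the GFP libraries without overlap. *PRPH* was last in both groups, at 0.272 ± 0.0608 and 0.0709 ± 0.0275. These levels depend on the annotation, since merged exons of *VIM* span 5176 bases and its longest transcript 2666 bases.

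ERRg replicate 2 had the lowest value of its group for 9 of the 10 genes, and *ESRRG* itself was at 0.735 times the mean of replicates 3 and 4. Without this library 7 of the 10 genes were called higher (*INA* and *NES* in addition), where 22.9% of tested genes were. Only *PRPH* was called lower, where 20.3% of tested genes were. With the unassigned-read share as a covariate, *NEFL*, *NEFM*, *NEFH* and *DCX* were called higher, against 7.24% of tested genes. *STMN2* and *VIM* were called lower, against 5.4% of tested genes. The share differs between the groups, so this fit cannot fully separate it from the overexpression.

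**Figure D4:**
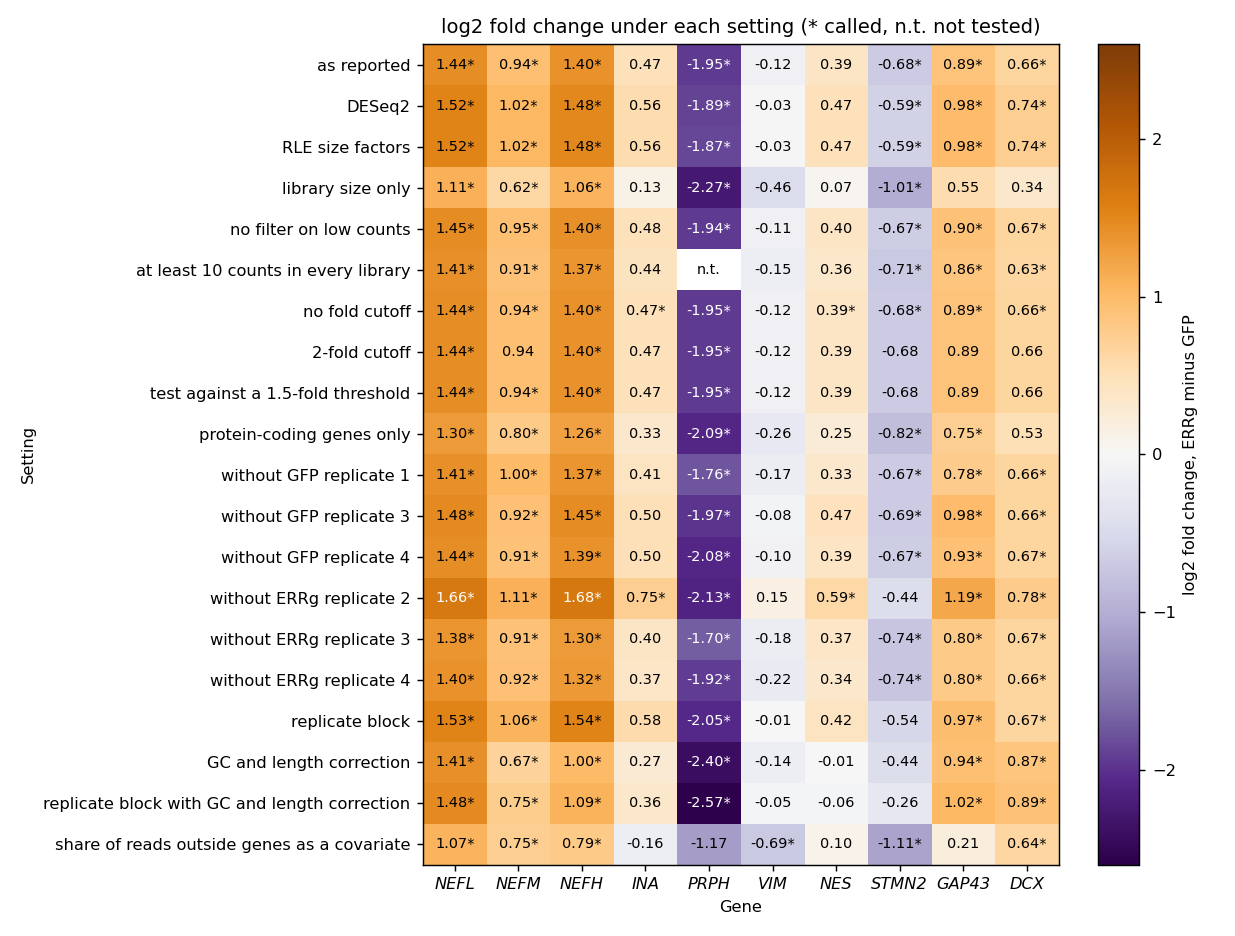
log2FC of the 10 genes (columns) as reported and under each of 19 alternatives (rows), with the colour scale running from purple (lower) to orange (higher); a star marks a call and n.t. a gene that was not tested. *NEFL* and *NEFH* carry a star in every row, *NEFM* and *PRPH* lose theirs in 1 row each (the 2-fold cutoff and the covariate), *STMN2*, *GAP43* and *DCX* lose theirs in several, and *VIM* gains it with the covariate.

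Other genes of the filament family were led by nuclear lamins and keratins. Of 15 such genes, 12 were tested, 5 were called higher and 0 lower (edgeR's quasi-likelihood test), with a median log2FC of 0.49. The background was 17.3% of all and 25.9% of protein-coding genes called higher, and 16.8% and 12.4% called lower. *SYNM* passed the adjusted p (0.0017, the same test) without overlap between the groups but missed the fold limit (log2FC -0.52), and it was the 1 gene lower at an unadjusted p below 0.05. DESeq2 called 0 lower, and other alternatives called up to 2. *KRT18*, an epithelial keratin, had 18.7, 25.1 and 18.8 CPM in the GFP and 44.1, 73.2 and 67.3 CPM in the ERRg libraries (log2FC 1.56, SE 0.19). Its pairing partner *KRT8* was not called (0.18, SE 0.13). Both keratin genes have processed pseudogenes that can share reads. The lamin *LMNA*, a filament of the nuclear envelope, rose from 416, 497 and 476 CPM to 733, 948 and 1039 CPM (log2FC 0.97, SE 0.14). *KRT10* (0.96) and *IFFO2* (0.84) were also called higher. With the covariate 1 of the 5 calls was made, and with the GC and length adjustment 2 were, so the count of this list depends on both.

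Among 27 genes of the growth cone and axonal cytoskeleton, 26 were tested, 8 were called higher (background 17.3% of all and 25.9% of protein-coding genes) and 6 lower (16.8% and 12.4%), with a median log2FC of 0.098. The count called higher was near the protein-coding background and is no result about the list. *DBN1* (drebrin) had 229, 263 and 249 CPM in the GFP and 449, 609 and 695 CPM in the ERRg libraries (log2FC 1.24, SE 0.15). *FSCN1* (fascin, which bundles actin) had a log2FC of 1.09 and *MARCKSL1* of 0.95. *MARCKS* of the same list was called lower, from a mean of 1223 CPM in the GFP to 781 CPM in the ERRg libraries (log2FC -0.65, SE 0.13). *GPM6A*, a membrane glycoprotein of neurites, had 25, 32 and 37 counts in the GFP and 62, 114 and 97 counts in the ERRg libraries (1.49, SE 0.22), whereas its paralogue *GPM6B* fell by 0.81 on the log2 scale.

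Microtubule-binding genes went both ways. *MAP2*, a dendritic microtubule protein, fell from 263, 248 and 245 CPM to 169, 146 and 142 CPM (log2FC -0.72, SE 0.10). *DCLK1*, the closest relative of *DCX*, fell by 0.68 on the log2 scale (SE 0.091), opposite to *DCX*. *DPYSL5*, a collapsin response mediator, fell by 0.85, whereas its paralogue *DPYSL4* was called higher (log2FC 0.87, SE 0.14). *MAP1A* was called higher too (log2FC 0.81, SE 0.11). The stathmins *STMN1* (0.20), *STMN3* (-0.040) and *STMN4* (-0.51) were not called, and *MAPT*, which encodes tau, had 5 counts or fewer in every library and was not tested. The check of alternate contigs did not cover *MAPT*, so whether its reads were lost to such contigs is not known. Without ERRg replicate 2, 3 genes of this list were called lower in place of 6, and *DCLK1* (log2FC -0.57) was not called. With the GC and length adjustment 3 were called lower too, without *DCLK1* (log2FC -0.44), *MAP2* (-0.51) and *GPM6B* (-0.55). With the covariate *MAP2* (-0.49), *GPM6B* (-0.48), *FSCN1* (0.53) and *MARCKSL1* (0.36) were not called.

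**Figure D5:**
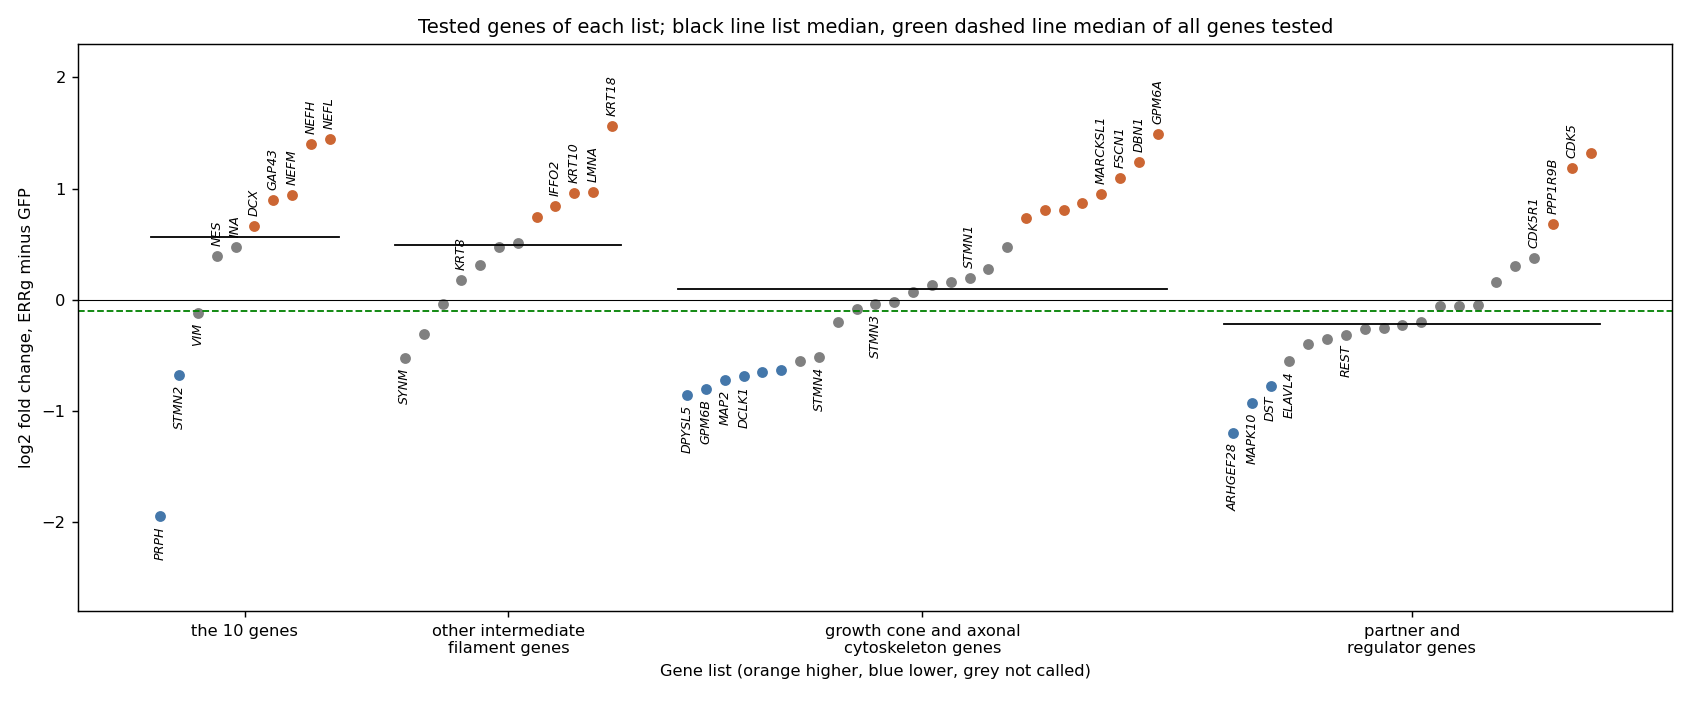
log2FC, ERRg minus GFP (vertical axis), of each tested gene in the 4 lists (horizontal axis), sorted within a list. Genes named in the text, except *MARCKS*, *MAP1A* and *DPYSL4*, are labelled. Black lines are list medians and the green dashed line the median of all tested genes. The medians are 0.57 for the 10 genes, 0.49 for other intermediate filament genes, 0.098 for growth cone and axonal cytoskeleton genes and -0.22 for partner and regulator genes.

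Of 20 genes for partners and regulators of these proteins, 3 were called higher, beside 17.3% of all tested genes and 25.9% of the protein-coding ones. Another 3 were called lower, beside 16.8% and 12.4%, so these counts are near the background and are no result about the list. The median log2FC was -0.22. *CDK5*, a kinase that phosphorylates neurofilament tails and DCX, had 46.04, 52.34 and 49.999 CPM in the GFP and 77.9, 126.0 and 133.8 CPM in the ERRg libraries (log2FC 1.19, SE 0.18). With the covariate the log2FC of *CDK5* was 0.42, below the fold limit. Its activator *CDK5R1* was not called (0.37, SE 0.11). *PPP1R9B* (spinophilin) had a log2FC of 0.68. *ARHGEF28*, which encodes a protein that binds *NEFL* mRNA, fell from 60.1, 60.4 and 62.9 CPM to 28.9, 25.4 and 25.7 CPM (log2FC -1.20, SE 0.094). The neuronal kinase *MAPK10* fell by 0.93 and the cytoskeletal linker *DST* by 0.77 on the log2 scale. Neither was called with the GC and length adjustment (*MAPK10* -0.43, *DST* -0.31) or with the covariate (-0.39 and -0.21). *PPP1R9B* was not called in these fits either (0.19 and 0.41), whereas *ARHGEF28* was called in both. *REST*, the repressor of neuronal genes, had a log2FC of -0.32 (SE 0.089), and *ELAVL4*, which stabilizes *GAP43* mRNA, of -0.55 (SE 0.092). Neither reached 1.5-fold.

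Promoter windows from RefSeq (GRCh38.p14, 250 bases before to 50 after a start) were found for 6 of the 10 genes, in 8 windows, and were not found for *NEFL*, *NEFM*, *NEFH* and *STMN2*. The ERR response element TCAAGGTCA was in none of the 8 windows on either strand, where 0.353% of all 35116 windows held it. Its core AAGGTCA was in none of them either, where 3.92% of all windows held it. The shorter nuclear receptor half-site AGGTCA, which is contained in both, was in the *NES* window and in 13.8% of all windows. TATAAA, the core of a TATA box, was in the windows of *PRPH* and *DCX* and in 11.5% of all windows. These matches describe letters only. The 250 bases before the start are shown for *GAP43*, which rose, *PRPH*, which fell, and *NES*, with the match of *PRPH* to TATAAA and the reverse complement of AGGTCA in *NES* in capitals. *GAP43* has no match, the match of *PRPH* starts 31 bases before the start, and that of *NES* 90 bases before it.
*GAP43*, chr3:115623260-115623509, plus strand: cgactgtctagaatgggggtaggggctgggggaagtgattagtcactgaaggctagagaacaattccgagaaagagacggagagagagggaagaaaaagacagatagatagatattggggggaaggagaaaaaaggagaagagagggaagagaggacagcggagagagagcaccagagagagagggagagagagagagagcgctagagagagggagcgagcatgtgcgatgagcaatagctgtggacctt
*PRPH*, chr12:49294897-49295146, plus strand: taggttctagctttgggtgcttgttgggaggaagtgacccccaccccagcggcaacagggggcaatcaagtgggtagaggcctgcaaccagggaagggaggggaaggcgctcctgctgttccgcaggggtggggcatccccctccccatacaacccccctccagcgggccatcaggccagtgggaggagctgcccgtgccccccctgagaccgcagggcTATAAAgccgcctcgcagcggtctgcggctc
*NES*, chr1:156677408-156677657, minus strand: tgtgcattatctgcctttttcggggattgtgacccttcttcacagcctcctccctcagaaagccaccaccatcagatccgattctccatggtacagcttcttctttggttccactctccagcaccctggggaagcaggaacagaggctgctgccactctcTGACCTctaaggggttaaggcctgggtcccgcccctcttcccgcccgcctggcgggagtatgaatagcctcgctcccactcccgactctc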

How the data were processed

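The authors deposited raw counts per gene. Per the labels' processing notes they used Trim Galore 0.6.7, STAR 2.7.9a on GRCh38 and HTSeq 0.11.3. The annotation release and strand setting are not given in the sources used here. The 5 HTSeq summary entries were kept out of library sizes. Identifiers were matched without version to GENCODE release 44 (90.1% of 67060 found). Counts were fitted in R 4.3.3 with edgeR 4.0.16 (filterByExpr, TMM, quasi-likelihood test, all 6 libraries, no covariate) and adjusted over all tested genes by the Benjamini-Hochberg method. Each standard error (SE) was taken from the log2 fold change (log2FC) and the square root of its F, and 95% intervals assume a normal distribution. The fits were tested on simulated data. Replicates of a group differed by more than sampling noise.

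The 10 genes, the related lists and the tests were chosen with earlier results of these data known. Genes named from a list were the called ones with the largest changes (up to 4 in each direction, mean of at least 50 counts). *SYNM*, *KRT8*, *CDK5R1*, *REST*, *ELAVL4*, *MAPT*, *MARCKS*, *MAP1A*, *DPYSL4*, the stathmins and the markers *HAND2* and *COL3A1* were named after their values were seen. Alternatives were DESeq2 1.42.0, RLE and library size scaling, other filters and cutoffs, protein-coding genes, single libraries left out, the replicate number as a block, curves for GC content and length (mgcv 1.9.3) and the unassigned-read share as covariate. The class IV sum, the protein-coding background, the contig check and the motifs AGGTCA and TATAAA were added after seeing the data. Python 3.11.15 with pandas 2.3.3, scipy 1.17.1 and matplotlib 3.10.9 made tables and plots. Proteins were not compared. A few list genes that fall under this rule are left unnamed here.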

Additional observations from a re-analysis of the deposited data

How the results depend on the processing

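The *ESRRG* call held in all alternatives. Library size as the only scaling moved the median log2 fold change of all tested genes from -0.10 to -0.42, and directions under it are relative to that shift.

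Of the 10 genes, 5 were called higher and 2 lower. Called higher were 3 when scaled by library size only, 2 at 2-fold, 3 by the test against a 1.5-fold threshold, and from 5 to 7 with 1 library left out. Only 1 gene was called lower with at least 10 counts in every library (*PRPH* was then not tested), and likewise 1 at 2-fold, by the 1.5-fold threshold, under the replicate block, under the GC and length adjustment and under both. Leaving out 1 library gave from 1 to 2 lower genes, with 1 when ERRg replicate 2 was left out. Signs reversed, without a call, for *INA* with the covariate (-0.16), *VIM* without ERRg replicate 2 (0.15; range with 1 library left out -0.22 to 0.15) and *NES* under the GC and length adjustment (-0.010), also under the block (-0.059).

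Other intermediate filament genes called higher (5) were 3 when scaled by library size only, 1 at 2-fold, 3 by the 1.5-fold threshold, 2 with the GC and length adjustment, 2 with the replicate block added to it, 1 with the covariate and from 5 to 8 with 1 library left out. Called lower (0) were 2 when scaled by library size only, 1 without a filter, 1 at any fold, 1 with protein-coding genes only, 2 with the GC and length adjustment, 1 with the replicate block added and 1 with the covariate. Growth cone genes called higher (8) were 4 when scaled by library size only, 3 at 2-fold, 4 by the 1.5-fold threshold and 4 with the covariate. Called lower (6) were 0 with the 2-fold cutoff or the 1.5-fold threshold, 3 with the GC and length adjustment with or without the replicate block, and leaving out 1 library gave from 3 to 7. Partner and regulator genes called higher (3) were 5 with no fold cutoff and 1 with the covariate, and called lower (3) 8 when scaled by library size only, 8 at any fold and 1 with the 2-fold cutoff. A stricter cutoff or fewer genes or libraries is the alternative itself in several of these. For the others the cause was not tested.

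The groups share the replicate numbers 3 and 4, which the labels tie to no batch. Deviations from the group means correlated across genes at 0.075 for replicate 3 and at -0.00010 for replicate 4. Unmatched numbers reached 0.14 (GFP replicate 1 with ERRg replicate 2) and 0.10 (GFP replicate 3 with ERRg replicate 4). The numbers were therefore not taken as pairs. ERRg replicate 2 weighs on the deviations of its group, so they cannot decide whether libraries were paired. GFP replicate 1 and ERRg replicate 2 were each alone in their block, so the group effect of the block fit rests on replicates 3 and 4. It is no check independent of leaving out ERRg replicate 2. With the replicate block *STMN2* had a log2 fold change of -0.54 and lost its call through the fold limit. No other of the 10 genes changed its call. The count of *PRPH*, 25 or fewer per library, limits the precision of its fold change.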

Other observations

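The genes next to the 10 were mixed in direction. Of 18 nearest protein-coding neighbours that are not themselves among the 10, 15 were tested, 4 were called higher and 7 lower (edgeR's quasi-likelihood test), beside 25.9% and 12.4% of all protein-coding genes tested, with a median log2 fold change of -0.35. *NEFM* and *NEFL* are each other's neighbours, 31857 bases apart on opposite strands with their 3′ ends facing, and both rose, while *DOCK5* beyond *NEFL* did not reach 1.5-fold (log2 fold change 0.36, standard error 0.095). Both neighbours of *NES* rose. *CRABP2*, a retinoic acid binding protein, had 1840, 2652 and 2494 counts in the GFP and 3857, 7790 and 9015 counts in the ERRg libraries (log2 fold change 1.5003), and *BCAN*, the matrix proteoglycan brevican, had a log2 fold change of 1.31. Both neighbours of *DCX* fell although *DCX* rose, with log2 fold changes of -1.97 for *SERTM2* and -1.24 for *CAPN6*. *HEY1*, a Notch target next to *STMN2*, fell by 0.83 on the log2 scale. *ST8SIA6*, a sialyltransferase next to *VIM*, had 86, 77 and 63 counts in the GFP libraries and 5, 1 and 4 in the ERRg libraries.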
